A study of Mus musculus with 8 samples.

Results

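The comparison described here sets the cervical spinal cord of mice given MPTP, without needling, against that of mice given saline. Its members were the 2 arrays labelled as MPTP-treated mice and the 2 labelled as control mice, out of 8 arrays in the series. Genes were read from probe sets that carried a single gene symbol, with the probe set of the highest mean over the 8 arrays standing for its gene. This gave 19938 genes, of which 16026 were tested because their mean signal exceeded the level that 30% of the probe sets lie under. All mice were male C57BL/6, a common inbred strain, and 6 weeks old per the labels. The MPTP group received MPTP-HCl into the peritoneum at 20 mg/kg of free base every 24 h for 4 weeks, and the control group received the same volume of saline on the same schedule. The other 4 arrays came from mice that had the same MPTP and were also needled in 14 sessions, 2 arrays at the acupoints GB34 and LR3 and 2 at the hips. They set no difference, but they entered the shared estimate of spread between arrays. They also entered the mean over the 8 arrays that was used for the filter, the choice of probe set and the groups by signal. Their values are cited where they show how stable a level was. The labels do not say if the RNA on each array came from 1 animal or several, so the p-values measure the spread between these arrays.

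MPTP is a lipophilic molecule that crosses into the brain and cord, where monoamine oxidase B, an enzyme abundant in astrocytes, turns it into the toxic ion MPP+. Dopamine neurons take up MPP+ through the dopamine transporter, and it then blocks complex I of the mitochondrial respiratory chain. In mice the substance is used to model parkinsonism by its damage to the nigrostriatal pathway. The spinal cord holds no such dopamine cell group of comparable size. It receives descending dopamine, noradrenaline and serotonin fibres, and it contains motor neurons, inhibitory and excitatory interneurons, astrocytes, oligodendrocytes and microglia.

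Values are log2 signals on the authors' RMA scale, a method that corrects the background, equalises the arrays and combines the probes of a probe set. Differences are MPTP minus control on that log2 scale, with the standard error (SE) of the limma fit and a p adjusted by Benjamini-Hochberg over the 16026 genes, and a gene was called at an adjusted p under 0.05. A single number in brackets after a gene is its log2 difference. A signal cannot be compared between genes, since probes differ in brightness. In whole tissue, fewer cells of a type and less RNA per cell cannot be told apart. Markers of neurons, astrocytes and oligodendrocytes were tested on these arrays in 21 of 21, 25 of 25 and 21 of 24 listed genes, and their values are given with each cell type.

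Several arrays stood apart in markers of tissue around the cord. The median of 29 skeletal muscle markers was 5.66 and 5.64 on the MPTP arrays, against 6.50 and 8.23 on the control arrays, so both control arrays were higher and control replicate 2 was highest of all 8. The 14 Schwann cell and peripheral nerve markers had medians of 6.52 and 7.09 on the MPTP arrays, against 7.92 and 6.37 on the control arrays, so control replicate 1 was the highest there and control replicate 2 the lowest of these 4. The 20 markers of meninges and fibroblasts had medians of 6.21 and 7.38 on the MPTP arrays and 7.56 and 6.96 on the control arrays, which overlapped. The spread of values over all probe sets also differed, with a standard deviation of 2.47 and 2.48 on the MPTP arrays and 2.35 on both control arrays. Probe sets without a symbol, mostly dim, had a median of 4.32 and 4.29 on the MPTP arrays and 4.75 on both control arrays. Over the genes tested, acupoint replicate 1 correlated at 0.9875 with control replicate 1 and at 0.9878 and 0.9908 with the MPTP arrays. The 2 control arrays correlated at 0.9876 with each other. The part of these differences between arrays in the results below was not tested. The counts of most lists are for this reason followed by those after cyclic loess, which evens out differences that follow the signal level, and by those without control replicate 2.

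**Figure D1:**
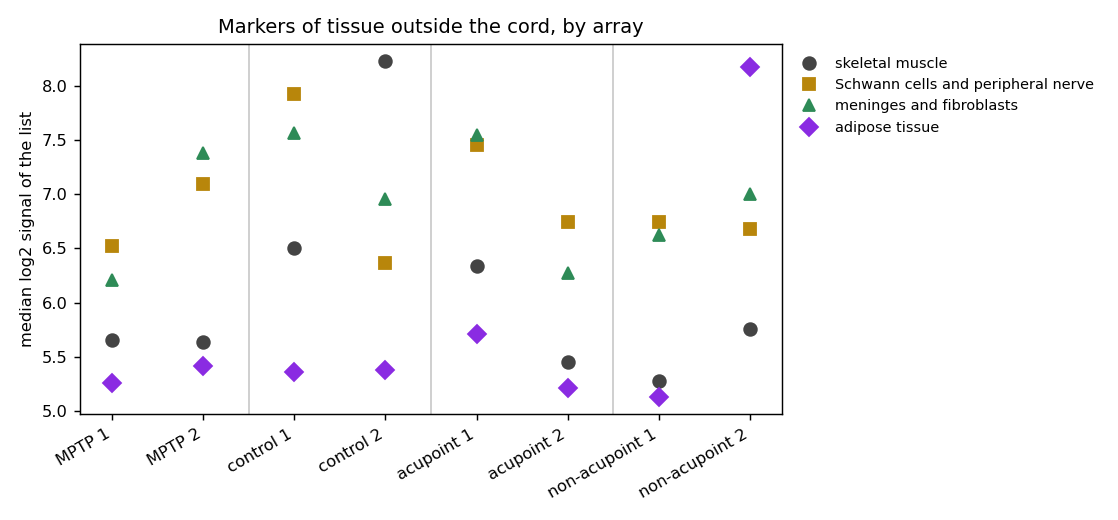
Median log2 signal of 4 marker lists of tissue outside the cord (vertical axis) on each of the 8 arrays (horizontal axis), with 1 point per list and array. Muscle markers lie at 5.66 and 5.64 on the MPTP arrays and reach 8.23 on control replicate 2, and adipose markers are high only on the second non-acupoint array.

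In the MPTP cords 2199 genes were higher and 497 lower than in the control cords, which is 13.7% and 3.1% of the genes tested and 16.8% together. Most differences were small: 94 genes, or 0.587%, were called and at least 2-fold apart. Both MPTP arrays lay above both control arrays for 41.9% of the genes tested and below them for 22.1%, so an absence of overlap is common here and marks no gene out. The median difference over all genes tested was 0.061. Centring each array on its median moved that median to 0.219 and gave 4028 genes higher and 218 lower, whereas cyclic loess moved it to 0.037 and gave 1338 higher and 752 lower, or 8.35% and 4.69%. With control replicate 2 left out, 557 genes were higher and 124 lower, or 3.48% and 0.774%. The sizes of the differences depended less on any single array: among the 2696 called genes, the difference without control replicate 2 was 0.93 times the full value at the median gene (quartiles 0.824 and 1.04), and no gene changed sign. Without MPTP replicate 1 or MPTP replicate 2 only 69 or 194 genes were called, although the median ratio of the differences was 0.983 and 1.02.

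The direction of the calls followed the signal level. Among the dimmest of 5 equal groups of genes ordered by mean signal, 15 were higher and 77 lower, and the median difference was -0.07. Among the brightest group 1045 were higher and 95 lower, with a median of 0.20. The share called higher thus ran through 0.468%, 4.02%, 10.6%, 20.9% and 32.6% from the dimmest to the brightest group, while the share called lower stayed between 2.4% and 3.62%. For lists whose members lay mostly in the brightest group, the share called higher is therefore set beside 32.6% in most cases.

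**Figure D2:**
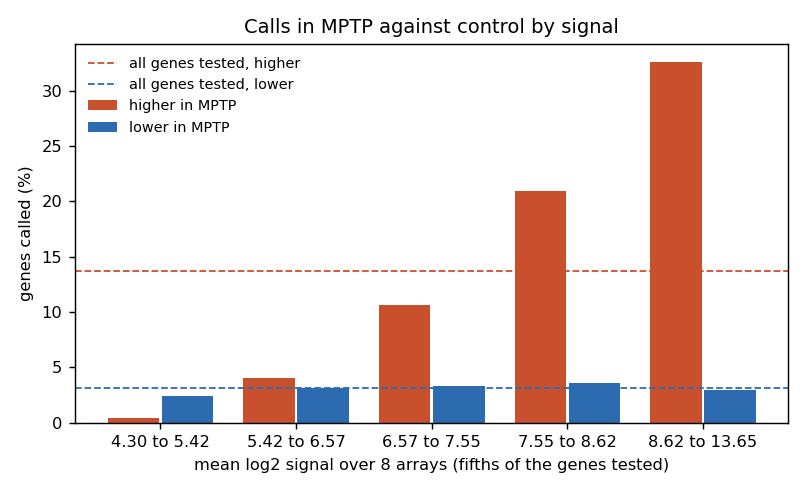
Percent of genes called higher or lower in MPTP than in control cords (vertical axis) in 5 equal groups of genes ordered by mean log2 signal (horizontal axis, with the range of each). Bars for higher genes climb to 32.6% in the brightest group, bars for lower genes stay near the dashed line of all genes tested at 3.1%.

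Several classes of short RNA were mostly lower or not called, whereas coding genes were more often higher. Of 15212 protein-coding genes 2181 were higher and 408 lower, with a median difference of 0.07. Of 36 small nucleolar RNA genes, which guide chemical changes of ribosomal RNA, none was higher and 25 were lower, with a median difference of -0.74, and the median without control replicate 2 was also -0.74. Of 117 microRNA genes 2 were higher and 22 lower (median -0.29). Both Y RNA genes tested, 2 of 3 RNase P RNA genes and Rmrp, the RNA of RNase MRP, were lower too; Rmrp had 9.68 and 9.81 on the MPTP arrays and 10.36 and 10.65 on the control arrays, a difference of -0.76 (SE 0.13, adjusted p = 0.00694). Rmrp and the other small RNAs are named although the naming rule leaves them out, after their values were seen. By chromosome, 25.3% of the 506 X-linked genes were higher (median 0.17), the highest share of any chromosome with over 5 genes tested. In the brightest group the share was 49.6% of 121 X-linked genes and 31.9% of the 3084 others. After cyclic loess 19% of the X-linked genes were higher and without control replicate 2 9.09%, again above the rates of all genes in those settings.

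Among the 16 lower genes with the smallest p, 11 were protein-coding and 5 were long non-coding RNAs. As a class, 23 of 459 long non-coding RNAs were lower and 12 higher. Of the 10 tested members of a list of nuclear and imprinted long non-coding RNAs 5 were lower, 0 were higher and 4 had a positive difference. The 5 are 50% of the list, beside 3.1% lower among all genes and 3.62% in the signal group of the list median. After cyclic loess 5 were lower. The list median of -0.5 was -0.46 without control replicate 2. The list was written with earlier results of these data known, so its counts are a description. Rian, an imprinted long non-coding RNA that hosts small nucleolar RNAs, had 5.96 and 5.93 on the MPTP arrays, against 8.07 and 8.00 on the control arrays. That is 4.26-fold lower (log2 difference -2.09, SE 0.12, adjusted p = 0.000227), and the 4 needled arrays lay between 5.499 and 5.92. Meg3, an imprinted non-coding RNA transcribed from the same locus, had 9.82 and 9.88 on the MPTP arrays and 11.09 and 10.99 on the control arrays (-1.19, SE 0.08, adjusted p = 0.000402). Malat1, a nuclear RNA of splicing speckles, had 10.11 and 10.49 in MPTP cords against 11.51 and 11.47 in control cords, a difference of -1.19. Other long non-coding RNAs that fell, named by the rule or as members of that list, were Snhg11 (-1.43), Lncpint (-1.27), Firre, an X-linked RNA that organises chromatin (-1.17), and Airn, an imprinted antisense RNA (-0.82). In these RNAs the 2 MPTP arrays were all below the 2 control arrays by more than the replicates differed. Most of them were named for a small p or for arrays that do not overlap, so this separation was largely set by the choice. Both MPTP arrays lay below both control arrays in 22.1% of all genes tested.

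Rian and Meg3 belong to the imprinted cluster between Dlk1 and Dio3 on chromosome 12, whose maternal chromosome gives a long run of non-coding RNAs, small nucleolar RNAs and microRNAs, and whose paternal chromosome gives the proteins Dlk1, Rtl1 and Dio3. RefSeq lists 103 genes from Dlk1 to Dio3, of which 48 had a single-symbol probe set and 28 were bright enough to be tested. The 20 others were left out by the filter, which a gene can also pass through the control arrays alone, so the counts describe the brighter members only. Of the 25 non-coding genes tested 16 were lower and none was higher, beside 3.1% lower among all genes. Of the 16, 3 microRNA genes lay under the filter on both MPTP arrays and passed it through the control arrays. That leaves 13 lower genes. The 3 coding genes were not called: Dlk1, a Notch-like ligand, had 7.93 and 8.00 on the MPTP arrays and 8.05 and 8.24 on the control arrays, and the differences were -0.18 for Dlk1, 0.04 for Rtl1 and 0.03 for Dio3, the deiodinase that inactivates thyroid hormone. Among the 22 microRNA genes tested in the cluster 13 were lower, the same 3 included, and 21 had a negative difference (median -0.65). Among the 95 microRNA genes tested elsewhere 9 were lower and 2 higher (median -0.25). The small nucleolar RNA DQ267102 had 6.57 and 6.58 on the MPTP arrays, against 8.43 and 8.45 on the control arrays.

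**Figure D3:**
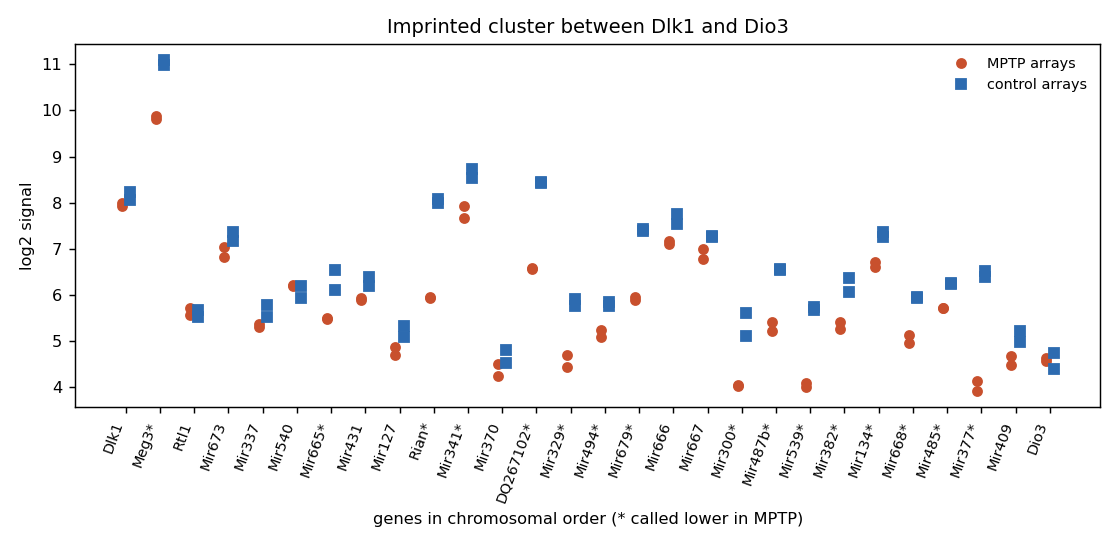
Log2 signal (vertical axis) of the 28 tested genes from Dlk1 to Dio3 in chromosomal order (horizontal axis), with circles for the 2 MPTP arrays left of squares for the 2 control arrays and an asterisk at genes called lower. Control squares lie above MPTP circles at the 16 marked non-coding genes, while the symbols meet or overlap at Rtl1 and Dio3.

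The microRNA genes of the cluster are named here after their values were seen. Mir377, Mir539 and Mir300 lay under the filter of 4.30 on all 6 arrays of MPTP-treated mice and passed it, as a mean over the 8 arrays, only through the control arrays, so they had to be lower and their values are a description. The other 13 lower genes of the cluster had at least 1 MPTP array above the filter. Mir377 had 3.93 and 4.13 on the MPTP arrays and 6.39 and 6.51 on the control arrays, a difference of -2.42. Mir539 had 4.09 and 4.00 in MPTP cords against 5.73 and 5.67 in control cords (-1.65). Mir679 differed by -1.49, Mir300 by -1.32, Mir329 by -1.26 and Mir487b by -1.24, and all 6 were lower on both MPTP arrays than on either control array. The probe sets do not separate the primary transcript, the hairpin and the mature microRNA, so no level of a mature microRNA is given. The mature forms that these 6 genes encode are shown because their seed, bases 2 to 8 and here in capitals, sets which messenger RNAs a microRNA pairs with. The sequences are from RefSeq (GRCm38.p6, chromosome 12, plus strand), where all 13 called microRNA genes of the cluster had an entry.
mmu-miR-329-5p (chr12:109713503-109713524): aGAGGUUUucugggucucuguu
mmu-miR-329-3p (chr12:109713541-109713562): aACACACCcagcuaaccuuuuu
mmu-miR-679-5p (chr12:109715587-109715608): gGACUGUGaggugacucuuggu
mmu-miR-679-3p (chr12:109715624-109715645): aGCAAGGUccuccucacaguag
mmu-miR-300-5p (chr12:109724318-109724339): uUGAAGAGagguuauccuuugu
mmu-miR-300-3p (chr12:109724363-109724384): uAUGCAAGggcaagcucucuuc
mmu-miR-487b-5p (chr12:109727347-109727367): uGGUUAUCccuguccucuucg
mmu-miR-539-5p (chr12:109728136-109728157): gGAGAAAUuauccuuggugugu
mmu-miR-377-5p (chr12:109740515-109740536): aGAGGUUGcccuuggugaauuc
mmu-miR-377-3p (chr12:109740553-109740574): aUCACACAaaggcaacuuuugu
The 23 mature arms of the 13 called genes carried 23 different seeds, so none of them shared a seed with another. Outside the group the seed of mmu-miR-329-3p was shared with mmu-miR-362-3p, that of mmu-miR-377-5p with mmu-miR-672-5p and that of mmu-miR-679-5p with mmu-miR-7221-3p. Among arms not printed here, mmu-miR-494-5p shared its seed with mmu-miR-410-5p, mmu-miR-134-3p with mmu-miR-3620-5p and mmu-miR-668-5p with mmu-miR-467h.

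Coding transcripts listed as held back in the nucleus with introns were also often lower. That list was written with earlier results of these data known, so its counts are a description. Of 29 such transcripts tested 12 were lower and 1 higher (median -0.27), and after cyclic loess 18 were lower and without control replicate 2 there were 7. The 12 are 41.4% of the list, beside 3.1% lower among all genes and 3.62% in the signal group of the list median. Leng8 had 6.90 and 6.89 on the MPTP arrays, against 8.29 and 8.39 on the control arrays, and was 2.71-fold lower (SE 0.09 on the log2 scale, adjusted p = 0.000342). Wsb1, a ubiquitin ligase adaptor, had 8.70 and 8.81 in MPTP cords and 10.02 and 9.82 in control cords (-1.17, adjusted p = 0.00117). Nktr (-0.79), Rsrp1 (-0.75), Pnisr (-0.73), the cyclins Ccnl1 (-0.53) and Ccnl2 (-0.62) and the RNA-binding protein Tia1 (-0.59) fell with them. The member that rose was Slc38a2, a glutamine and alanine transporter (0.82). Among SR proteins and hnRNPs, which steer splicing, 5 of 39 rose, such as Hnrnpk (0.39), and 5 fell, such as Srrm1 (-0.56), Srrm2 (-0.39) and Son (-0.42). Of 35 proteins of the spliceosome core 8 rose and 1, Prpf39 (-0.60), fell. These counts depended on the scaling: SR proteins and hnRNPs had 3 higher and 9 lower after cyclic loess and 14 higher and 1 lower after centring, and 1 higher and 2 lower without control replicate 2. The core proteins had 4 higher and 2 lower after cyclic loess and 2 higher without control replicate 2. The medians of 0.13 and 0.14 both became -0.01 after cyclic loess. Of the core proteins 22.9% rose, close to the 20.9% of the signal group of their median. Of SR proteins and hnRNPs 12.8% rose, under the 32.6% of the brightest group. Further lower transcripts with small p were Cplane1 (-1.09), a protein of cilium assembly, Ints6l (-1.21), Atxn2l (-1.03), an RNA-binding relative of ataxin 2, Tmem39a (-0.83), Dennd4a (-0.73), Dusp11 (-0.86), a phosphatase that acts on RNA, and Rnpc3, a protein of the minor spliceosome (-1.17). The other probe sets of Dennd4a differed by less, from -0.50 to -0.03.

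The 16 higher genes with the smallest p were between 1.54-fold and 2.18-fold higher. Clstn3, a synaptic adhesion protein, had 10.54 and 10.43 on the MPTP arrays, against 9.71 and 9.65 on the control arrays (0.80, SE 0.07, adjusted p = 0.00116). Slc2a1, the glucose transporter of the blood-brain barrier, had 10.82 and 10.81 in MPTP cords and 10.05 and 9.86 in control cords, a difference of 0.86 (SE 0.08, adjusted p = 0.00117). The 2 arrays of each group differed by far less than the groups in both genes, which a choice by smallest p favours. Also in this set were Pnmal2 (0.91), Plekhb2 (0.69), Spop, a ubiquitin ligase adaptor (1.06), Bcap31, a chaperone of the endoplasmic reticulum membrane (0.77), Cpq, a lysosomal peptidase (1.06), and Ncam1, a neural adhesion molecule (0.65). Hap1, the huntingtin-associated transport protein (0.77), Eno2, the neuronal enolase (0.62), Aldh6a1, an enzyme of valine breakdown (0.72), and Abat, which breaks down GABA (0.65), completed it with Glra3, Slc1a4, Slc38a2 and Serpina3n, which are described with their lists.

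The largest increases were in dimmer genes with a wider spread. Alas2, the heme synthesis enzyme of red cell precursors, had 7.87 and 7.81 on the MPTP arrays, against 5.24 and 5.54 on the control arrays, which is 5.48-fold higher (log2 difference 2.45, SE 0.38, adjusted p = 0.00543). On the 4 needled arrays it ranged from 5.59 to 8.57, so the 6 arrays of MPTP-treated mice varied widely. Ppbp, a platelet chemokine, was higher by 1.69 (SE 0.49, adjusted p = 0.044), and its needled arrays ran from 4.91 to 7.46. Of 10 erythroid markers tested 3 rose, namely Alas2, the transferrin receptor Tfrc (0.62) and carbonic anhydrase Car2 (0.31), whereas Slc4a1, the band 3 protein of red cells, was not called (0.13). After cyclic loess 2 were higher and without control replicate 2 there was 1. Other large increases were Hmgn5, an X-linked nucleosome-binding protein (1.76), Dmp1, a matrix protein known from bone (1.26), Car5b, a mitochondrial carbonic anhydrase (1.20), Htatsf1 (1.15), Angpt1, a ligand that steadies vessels (1.15), Scp2, a sterol carrier (1.10), Uprt (1.09), Ipp (1.13), Fads2b (1.22), Sp140 (1.20), Lgals3bp (1.06), and the zinc finger genes Zfp605 (1.16) and Zfp931 (1.10). Dio2, the deiodinase that activates thyroid hormone in astrocytes, had 7.78 and 7.78 on the MPTP arrays and 6.55 and 6.90 on the control arrays (1.06, adjusted p = 0.00803). Acupoint replicate 1 lay near the control arrays in Dio2, at 6.94, and in Zfp931, at 6.97 beside 6.99 and 6.76. Sp140 had 4.30 and 3.86 on the control arrays and passed the filter of 4.30 through the arrays of MPTP-treated mice. Its rise is thus a description.

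Enzymes and carriers that handle MPTP were measured next. Monoamine oxidase B, Maob, had 8.78 and 8.71 on the MPTP arrays and 8.22 and 7.87 on the control arrays (0.70, SE 0.11, adjusted p = 0.00561). Its relative Maoa, the main enzyme for serotonin and noradrenaline, had 8.69 and 8.80 in MPTP cords against 8.26 and 8.08 in control cords (0.58, adjusted p = 0.00534). Both MPTP arrays exceeded both control arrays for each enzyme, which was so in 41.9% of all genes tested. Abcb1a, the drug efflux pump of the vessel wall, also rose (0.70). These were the 3 of 15 tested members of the list that were called, a share of 20% beside 13.7% of all genes, and 3 were called after cyclic loess and 3 without control replicate 2. Slc6a3, the dopamine transporter, was dim, at 5.05 and 4.89 in MPTP cords and 4.77 and 4.94 in control cords (0.12, adjusted p = 0.751), and the vesicular monoamine transporter Slc18a2 was at 4.44 and 4.48 in MPTP cords and 4.42 and 4.55 in control cords. The groups overlapped in both transporters, and signals this close to the filter allow no statement on small changes.

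Of 12 enzymes that make and break down monoamines 5 rose: Maoa, Maob, Ddc, the decarboxylase that makes dopamine and serotonin (0.71), and the aldehyde dehydrogenases Aldh2 (0.75) and Aldh1a1 (0.39), which clear dopamine aldehyde. After cyclic loess 5 were called as well, and 3 were called without control replicate 2. Th, the rate-limiting enzyme of dopamine synthesis, had 6.35 and 6.54 on the MPTP arrays, against 6.41 and 5.58 on the control arrays (0.45, adjusted p = 0.207), and did not pass. Limma called none of 7 dopamine and adrenergic receptors (median 0.05), and 1 had an unadjusted p under 0.05. Of 13 serotonin receptors Htr1a (0.60) and Htr3a (0.54) rose, with 2 called after cyclic loess and 1 without control replicate 2.

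Complex I, the target of MPP+, had 5 of 39 subunits and assembly proteins higher and 1 lower (median 0.11, and -0.03 after cyclic loess). That is 12.8% higher, beside 32.6% in the brightest group of genes, where 31 of the 39 lay. After cyclic loess 1 was higher and 3 lower, and without control replicate 2 there was 1 in each direction. Ndufs1, the largest subunit of the matrix arm, had 10.61 and 10.59 on the MPTP arrays and 10.06 and 10.003 on the control arrays (0.56, adjusted p = 0.00456). The others that rose were Ndufa10, Ndufs8, Ndufa9 and Ndufv1, by 0.36, 0.38, 0.39 and 0.31, and the small subunit Ndufa3 fell by 0.51. Complexes II to V had 5 of 41 members higher (12.2%) and 6 lower, but 1 higher and 9 lower after cyclic loess and 8 higher and 2 lower after centring, so the balance depended on the scaling. Sdha (0.29), Uqcrfs1 (0.48) and Atp5a1 (0.30) were among the higher ones, and the small subunits Uqcrq (-0.59), Uqcr11 (-0.55), Atp5l (-0.55) and Cox6b1 (-0.36) among the lower ones. Cox6a2, also lower (-0.70), is the form of its subunit known from muscle. Without control replicate 2 limma called none of the 41, and 11 had an unadjusted p under 0.05, 6 of them higher. Cytosolic ribosomal proteins had 10 of 51 lower and none higher, for example Rpl12 (-0.60) and Rps28 (-0.57). That is 19.6% lower, beside 2.96% in the brightest group of genes, and after cyclic loess 19 were lower. Their median was -0.13 and turned to 0.03 when arrays were centred, and without control replicate 2 limma called none, with 9 at an unadjusted p under 0.05.

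Glycolysis and the citric acid cycle rose in 13 of 28 members, and none fell (median 0.27). Pfkl, the liver form of phosphofructokinase, had 8.74 and 8.76 on the MPTP arrays and 7.88 and 7.92 on the control arrays (0.85, SE 0.09, adjusted p = 0.002). Pfkm rose by 0.67, Pgam1 by 0.41, Tpi1 by 0.34 and Pkm, pyruvate kinase, by 0.30. In the mitochondrion, Pdha1 of pyruvate dehydrogenase rose by 0.50, Idh3a by 0.56 and Mdh2 by 0.41. The count was 7 after cyclic loess, when 1 member was also lower, and 8 without control replicate 2. The share was 46.4%, beside 32.6% in the brightest group of genes. Of 26 amino acid and neutral transporters 11 rose and none fell (8 higher and 1 lower after cyclic loess, 6 higher without control replicate 2; 42.3% beside 32.6% in the brightest group), including Slc1a4, a serine and alanine carrier (0.81), Slc38a2, the neuronal glucose transporter Slc2a3 (0.82), the amino acid carrier subunit Slc3a2 (0.60) and Slc12a5, the neuronal chloride extruder (0.56).

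Genes of protein quality control were taken by compartment. Of 28 endoplasmic reticulum stress genes 11 rose and none fell (median 0.26), with 10 higher after cyclic loess. That is 39.3% higher, beside 20.9% in the signal group of the list median and 13.7% of all genes tested. Without control replicate 2 the list median was 0.19. Hspa5, the main chaperone of that compartment, had 10.76 and 10.67 on the MPTP arrays, against 10.20 and 10.04 on the control arrays (0.59, SE 0.08, adjusted p = 0.00379). The lectin chaperone Canx (0.58), the chaperones Hyou1 (0.61), Dnajc3 (0.57) and Hsp90b1 (0.29), the disulfide isomerases Pdia3 (0.42) and Pdia6 (0.49), and Sel1l (0.53) and Herpud1 (0.43), which serve the export of misfolded proteins, rose with it. Ddit3, the transcription factor CHOP, had 6.72 and 6.82 in MPTP cords and 6.68 and 6.43 in control cords (0.21, adjusted p = 0.291). Neither it nor Atf3 (-0.02), Trib3 (-0.38) or Chac1 (-0.01), which are induced under lasting stress, was called. Calr (0.09) and Creld2 (-0.10), other residents of the compartment, were not called either.

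The promoters of these chaperones were read because many of them share a regulatory element. The window ran from 250 bases before to 50 after each RefSeq start site (GRCm38.p6), and both strands were searched. The endoplasmic reticulum stress element, CCAAT, then 9 bases of any kind, then CCACG, was found in 7 of the 25 list members with a promoter in the table, namely Hspa5, Hsp90b1, Canx, Pdia6, Dnajc3, Calr and Creld2. It was present in 19 of the 12644 tested genes with a promoter, or 0.15%, and in 0.119% of all 32851 promoter windows. This element was added to the search after the values were seen. The first 5 genes rose and the last 2 were not called, so the element stood in promoters of both kinds. The 5 promoters are printed with the element in capitals.
Hspa5 (chr2:34771840-34772139, plus strand): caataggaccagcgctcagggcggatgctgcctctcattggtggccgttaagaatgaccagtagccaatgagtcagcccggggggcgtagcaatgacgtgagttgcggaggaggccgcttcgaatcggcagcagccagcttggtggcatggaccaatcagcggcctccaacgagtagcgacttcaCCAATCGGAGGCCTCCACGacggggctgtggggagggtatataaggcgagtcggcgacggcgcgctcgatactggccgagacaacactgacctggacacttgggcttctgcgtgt
Canx (chr11:50325624-50325923, minus strand): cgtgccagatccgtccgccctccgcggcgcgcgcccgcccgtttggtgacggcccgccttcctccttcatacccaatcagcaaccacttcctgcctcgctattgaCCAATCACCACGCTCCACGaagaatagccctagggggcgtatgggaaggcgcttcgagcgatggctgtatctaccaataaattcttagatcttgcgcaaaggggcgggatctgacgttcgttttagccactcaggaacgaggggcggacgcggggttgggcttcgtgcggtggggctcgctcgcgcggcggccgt
Pdia6 (chr12:17266339-17266638, plus strand): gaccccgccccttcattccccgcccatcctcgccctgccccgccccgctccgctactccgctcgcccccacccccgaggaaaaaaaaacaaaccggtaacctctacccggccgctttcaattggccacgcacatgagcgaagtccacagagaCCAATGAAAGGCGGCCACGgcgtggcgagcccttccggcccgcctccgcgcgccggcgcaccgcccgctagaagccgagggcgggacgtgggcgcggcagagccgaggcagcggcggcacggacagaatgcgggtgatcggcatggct
Dnajc3 (chr14:118937682-118937981, plus strand): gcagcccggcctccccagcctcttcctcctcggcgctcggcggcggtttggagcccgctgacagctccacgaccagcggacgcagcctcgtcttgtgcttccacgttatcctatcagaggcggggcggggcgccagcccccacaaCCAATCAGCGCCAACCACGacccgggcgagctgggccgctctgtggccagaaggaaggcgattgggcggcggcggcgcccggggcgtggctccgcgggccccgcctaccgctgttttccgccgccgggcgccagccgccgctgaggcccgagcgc
Hsp90b1 (chr10:86705395-86705694, minus strand): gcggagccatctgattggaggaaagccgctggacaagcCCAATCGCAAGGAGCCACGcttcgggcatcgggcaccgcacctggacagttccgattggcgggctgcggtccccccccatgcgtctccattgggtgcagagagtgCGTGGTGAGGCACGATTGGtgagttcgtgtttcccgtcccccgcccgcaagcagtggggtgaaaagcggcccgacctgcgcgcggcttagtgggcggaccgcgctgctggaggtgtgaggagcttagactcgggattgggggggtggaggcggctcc
In Hsp90b1 the element occurred 2 times.

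Cytosolic chaperones rose in 11 of 26 members and none fell (median 0.25), with 5 higher after cyclic loess and 3 without control replicate 2. Hspb1, a small heat shock protein of astrocytes and motor neurons, had 8.63 and 8.63 on the MPTP arrays and 7.66 and 7.82 on the control arrays (0.89, SE 0.12, adjusted p = 0.00347). Of the 26 members 21 lay in the brightest group, and 42.3% rose beside 32.6% there. Hsp90aa1 (0.38), Dnajb1 (0.50), Hspa4 (0.33) and the chaperonin subunits Cct2 (0.63) and Cct8 (0.37) rose too. The heat shock element, searched as GAANNTTC or TTCNNGAA, was in 12 of 22 promoters of the list and in 14% of the tested genes with a promoter. Of the 12 genes 6 rose, and of the 22 genes 10 did. The promoter of Hspb1 is shown with its elements in capitals.
Hspb1 (chr5:135887669-135887968, plus strand): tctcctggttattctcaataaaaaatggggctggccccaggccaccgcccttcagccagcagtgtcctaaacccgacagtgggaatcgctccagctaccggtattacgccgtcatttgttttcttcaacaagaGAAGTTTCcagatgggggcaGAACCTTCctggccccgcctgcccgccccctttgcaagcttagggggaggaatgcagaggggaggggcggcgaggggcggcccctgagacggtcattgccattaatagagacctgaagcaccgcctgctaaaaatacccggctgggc

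The proteasome rose in 12 of 37 members, among them Psmd7 (0.49), Psmc4 (0.45) and Psmb2 (0.53), and none fell (median 0.16). That is 32.4%, against 32.6% in the brightest group of genes, where 30 of the 37 lay, so the share did not exceed that of genes of like signal. After cyclic loess 5 were higher and 1 lower, and without control replicate 2 a single member was higher. Autophagy and lysosome genes rose in 15 of 36 members and fell in 1 (median 0.25), a share of 41.7% higher beside 32.6% in the brightest group. Atp6v1a, a subunit of the proton pump, had 11.55 and 11.53 on the MPTP arrays and 10.96 and 10.88 on the control arrays (0.61, adjusted p = 0.00271). The lysosomal activator Psap (0.49), the cargo receptor Sqstm1 (0.45), Becn1 (0.53), Map1lc3b (0.46) and the cathepsins Ctsl (0.61), Ctsb (0.36) and Ctsd (0.36) were higher, while Gabarap, a relative of Map1lc3b, was lower (-0.39). After cyclic loess 8 were higher and 4 lower, and without control replicate 2 there were 6 and 1. Of 26 antioxidant genes 7 rose (26.9%, beside 32.6% in the brightest group), including Nqo1 (0.74), Gsr (0.47), catalase, Cat (0.34), and mitochondrial Sod2 (0.27), and Gpx4 fell (-0.28). That count was 1 after cyclic loess and 0 in limma without control replicate 2, when 9 had an unadjusted p under 0.05, 8 of them higher. The antioxidant response element, TGACNNNGC, was in 6 of 21 promoters of the list, of which only Gclm rose (0.38), and in 16.2% of the tested genes with a promoter. Among 15 parkinsonism genes Vps35, a protein of endosome sorting, rose (0.34) and Vps13c fell (-0.33); after cyclic loess 0 were higher and 3 lower, and without control replicate 2 limma called none, with 1 at an unadjusted p under 0.05.

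Astrocyte genes had the highest share of increases of all lists described. Of 25 markers 20 rose and none fell (median 0.45), where 32.6% rose in the brightest group of genes. Aldh1l1, a folate enzyme used as a general astrocyte marker, had 8.82 and 8.79 on the MPTP arrays, against 8.04 and 8.10 on the control arrays (0.74, SE 0.08, adjusted p = 0.00171). The glutamate transporter Slc1a3 had 9.17 and 9.09 in MPTP cords and 8.58 and 8.09 in control cords (0.80), and its partner Slc1a2 rose by 0.48. Agt, angiotensinogen (0.69), Mlc1 (0.76), the water channel Aqp4 (0.58), the gap junction proteins Gja1 (0.50) and Gjb6 (0.41), and Etnppl, a phospholyase (1.24), were higher, and Gfap rose by 0.38. The count was 14 after cyclic loess and 11 without control replicate 2, with medians of 0.32 and 0.42. Genes of reactive astrocytes rose in 4 of 21 members, among them Serpina3n (0.69, adjusted p = 0.00155) and Cd109 (0.79), with 3 after cyclic loess and 2 without control replicate 2, and their median of 0.08 became -0.14 without control replicate 2.

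Microglial markers rose in 8 of 24 members and none fell (median 0.28). Ctss, a lysosomal protease, had 10.09 and 10.10 on the MPTP arrays and 9.33 and 9.38 on the control arrays (0.74, adjusted p = 0.00218). The complement components C1qa (0.46) and C1qb (0.47), the fractalkine receptor Cx3cr1 (0.44), Itgam (0.61) and Aif1 (0.56) rose as well. After cyclic loess the count was 8 and without control replicate 2 it was 2. Complement genes rose in 5 of 16 members, among them Clu (0.64) and Itgb2 (0.70), and genes of activated microglia in 5 of 20, among them Apoe (0.55) and Ctsz (0.47). After cyclic loess these counts were 5 and 2, and without control replicate 2 they were 2 and 2. In 3 lists of dim genes, with medians in the signal group of which 4.02% rose, 2 of 24 cytokines and adhesion signals rose (Vcam1, 0.83, and Cx3cl1, 0.26), 1 of 22 interferon-stimulated genes (Ifit2, 0.70) and 1 of 16 antigen presentation genes (Tapbp, 0.55). After cyclic loess each of the 3 had 1 member higher. Without control replicate 2 the cytokine list had 1 higher, and limma called none of the others, with 7 interferon-stimulated and 4 antigen presentation genes at an unadjusted p under 0.05. Oligodendrocyte markers rose in 6 of 21 members, such as Mag, a myelin adhesion protein (0.57), and Cnp (0.34), while Myrf, the transcription factor of myelination, fell (-0.38). That is 28.6% higher, under the 32.6% of the brightest group of genes, and there were 3 higher and 2 lower after cyclic loess and 4 higher without control replicate 2. Of 14 precursor markers Lhfpl3 (0.73), Neu4 (0.63) and Pdgfra (0.46) rose, with 2 called after cyclic loess and 2 without control replicate 2. The precursor share of 21.4% was close to the 20.9% of the signal group in which that list median lay. Endothelial genes that rose were 5 of 19 and all were transporters of the barrier: Slc2a1, the lipid carrier Mfsd2a (0.74), Abcb1a, the lactate carrier Slc16a1 (0.56) and Slco1a4 (0.35). That is 26.3% of the endothelial list, beside 20.9% in the signal group of its median. After cyclic loess 4 were called and without control replicate 2 there were 3.

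**Figure D4:**
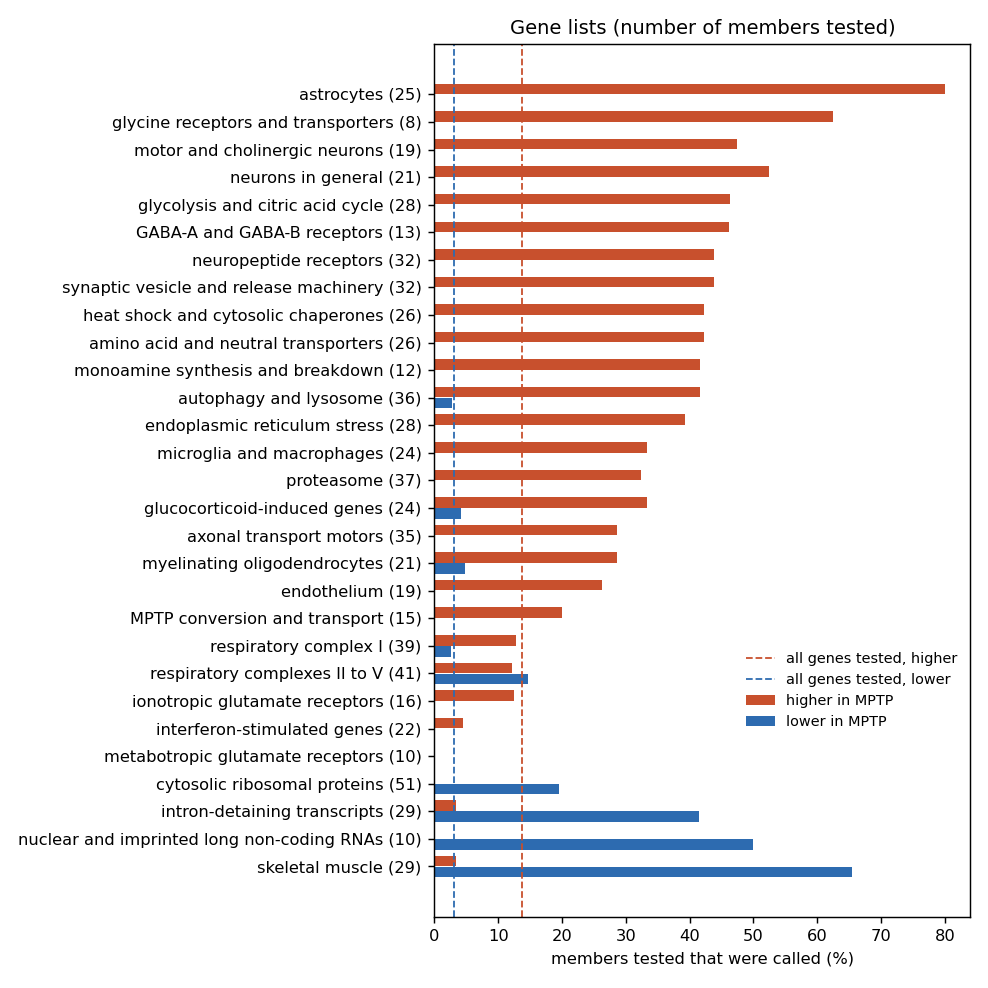
Percent of the tested members of each gene list (vertical axis, number tested in brackets) that were called higher or lower in MPTP than in control cords (horizontal axis). Dashed lines mark 13.7% higher and 3.1% lower over all genes tested; astrocyte markers reach 80.0% higher and muscle markers 65.5% lower.

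Neuronal markers were read by type. Of 21 general neuron markers 11 were higher, including Snap25 (0.44), Syp (0.32) and Syt1 (0.37), and 3 were after cyclic loess or without control replicate 2; these markers are bright, and 32.6% of the brightest group of genes rose. Motor and cholinergic neuron markers rose in 9 of 19 members, with 4 after cyclic loess and 4 without control replicate 2. Chat, which makes acetylcholine, had 7.74 and 7.30 on the MPTP arrays and 6.51 and 6.88 on the control arrays (0.83, SE 0.16, adjusted p = 0.0105), and the choline transporter Slc5a7 had 9.73 and 9.60 in MPTP cords against 8.70 and 9.03 in control cords (0.80). Chodl (0.82), Mmp9 (0.51) and the neurofilaments Nefl (0.35), Nefm (0.24) and Nefh (0.38) rose too. The 9 motor and cholinergic markers that rose are 47.4% of that list, beside 20.9% in the signal group of its median. Of 17 acetylcholine receptors 5 rose (4 after cyclic loess, 3 without control replicate 2), among them Chrm3 (0.78), Chrnb2 (0.62) and Chrna7 (0.49). Of 14 excitatory interneuron markers 1 rose, Slc17a6, the vesicular glutamate transporter of most cord excitatory neurons (0.75), 5 had a positive difference, and the median was -0.04, which turned to 0.01 after a further quantile normalization and 0.12 after centring. After cyclic loess 1 was higher, and without control replicate 2 there was 1 higher and 1 lower. Of 17 inhibitory interneuron markers 5 rose, with 4 after cyclic loess and 2 without control replicate 2, and of 10 sensory ganglion markers 1 rose (Prph, 0.42), with a median of -0.03 that turned to 0.05 and 0.12 in those settings and 2 members lower without control replicate 2.

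Receptors of the inhibitory transmitters were next described beside those of glutamate. Glycine receptors and transporters rose in 5 of 8 members, led by Glra3, at 7.65 and 7.63 on the MPTP arrays and 6.60 and 6.43 on the control arrays (1.13, SE 0.11, adjusted p = 0.00144), with Glra2 (0.77), Glrb (0.43), the anchor Gphn (0.27) and the glial transporter Slc6a9 (0.36). The 5 are 62.5% of the list, beside 32.6% in the brightest group of genes, where 5 of the 8 lay. After cyclic loess 2 of the 8 were called, and without control replicate 2 the list median was 0.34, beside 0.33 with all arrays. GABA receptors rose in 6 of 13 members, with Gabrg1 (0.94), Gabra2 (0.69), Gabra3 (0.66) and Gabrb1 (0.66) highest in difference. That is 46.2%, beside 20.9% in the signal group of the list median. After cyclic loess 5 were called, and without control replicate 2 the list median was 0.42, beside 0.35 with all arrays. Gad1 (0.41) and Gad2 (0.48), which make GABA, rose as well. Of 16 ionotropic glutamate receptors Gria1 (0.55) and Gria3 (0.56) rose (2 called after cyclic loess, 3 without control replicate 2), whereas Gria2 had 9.70 and 9.67 in MPTP cords and 9.62 and 9.48 in control cords and was not called. The 2 ionotropic genes that rose are 12.5% of their list, under the 20.9% of the signal group of its median. Limma called none of the 10 genes of the metabotropic list, and 1 had an unadjusted p under 0.05. Grm5, a receptor of that list, had 9.75 and 9.73 in MPTP cords and 9.67 and 9.71 in control cords.

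**Figure D5:**
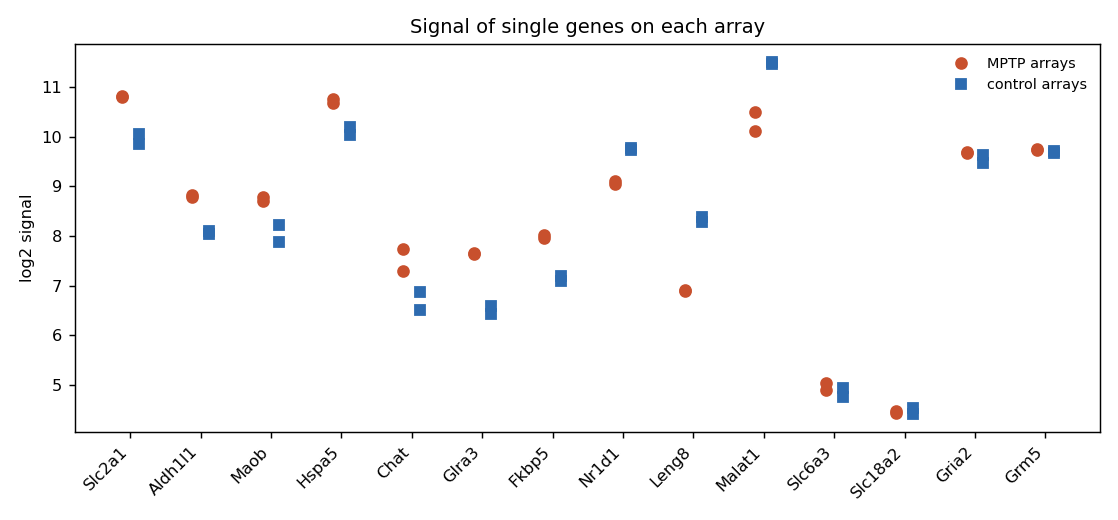
Log2 signal (vertical axis) of 14 genes named in the text (horizontal axis), with circles for the 2 MPTP arrays left of squares for the 2 control arrays. The circles stand above the squares for Slc2a1 to Fkbp5, below them for Nr1d1, Leng8 and Malat1, and meet them for the transporters Slc6a3 and Slc18a2.

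Neuropeptide receptors rose in 14 of 32 members and none fell (median 0.40), with 11 after cyclic loess but 2 without control replicate 2. Avpr1a, a vasopressin receptor, had 6.64 and 6.44 on the MPTP arrays and 5.72 and 5.67 on the control arrays (0.85, adjusted p = 0.00451), and the neuropeptide Y receptors Npy1r (0.89) and Npy2r (0.91), the galanin receptor Galr1 (0.84) and the kappa opioid receptor Oprk1 (0.67) rose. Among 26 neuropeptides 7 rose, including Pdyn, which encodes dynorphin (0.82), Calcb (0.75), Adcyap1 (0.71), Nts (0.67) and Trh (0.54). That count was 4 after cyclic loess and 1 without control replicate 2. Release machinery rose in 14 of 32 members (43.8%, beside 32.6% in the brightest group), for example Rab3c (0.78), Syt2 (0.54), Chga (0.65) and Nsf (0.30), with 9 after cyclic loess and 7 without control replicate 2. Axonal transport motors rose in 10 of 35 members, such as Kif5b (0.65), Kif5a (0.48) and Dync1i1 (0.50). That is 28.6%, under the 32.6% of the brightest group of genes, where 29 of the 35 lay, and the count was 5 after cyclic loess and 4 without control replicate 2. Guidance and adhesion genes rose in 12 of 45 members, among them Sema3a (0.63) and Epha4 (0.59), although the list median was 0.02, with 11 higher and 1 lower after cyclic loess and 5 higher without control replicate 2. The matrix of perineuronal nets rose in 8 of 31 members, led by Spock2 (0.89), Hapln1 (0.70) and Hapln4 (0.60), with 5 after cyclic loess and 5 without control replicate 2. Voltage-gated potassium channels rose in 4 of 35 members, with 1 higher and 1 lower after cyclic loess and 2 higher without control replicate 2, and voltage-gated sodium and calcium channels rose in 5 of 33 and fell in 3, with 2 and 3 after cyclic loess and 1 and 2 without control replicate 2. Of the 3 that fell, Cacna1s (-1.02) and Cacng1 (-0.68) are subunits of the skeletal muscle calcium channel. The share called higher was 26.7% for the guidance list and 25.8% for the matrix list, beside 20.9% in the signal group of both medians. It was 11.4% for the potassium channels and 15.2% for the sodium and calcium channels, beside 10.6% in the signal group of their medians.

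Hormone-responsive and clock genes moved in part. Glucocorticoid-induced genes rose in 8 of 24 members and fell in 1 (median 0.17). That is 33.3% higher, beside 20.9% in the signal group of the list median. Fkbp5, a chaperone that restrains the glucocorticoid receptor, had 8.02 and 7.96 on the MPTP arrays, against 7.20 and 7.10 on the control arrays (0.84, SE 0.15, adjusted p = 0.00824). Gpd1 (0.87), the kinase Sgk1 (0.50), Plin4 (0.58), Mt2 (0.43) and the receptor gene Nr3c1 (0.40) rose, and Hif3a fell (-0.56). After cyclic loess 3 were higher and 1 lower, and without control replicate 2 there was 1 higher. The glucocorticoid element in its full palindromic form, AGAACA, 3 bases of any kind and TGTTCT, was in 1 of 20 promoters of the list, that of Sgk1, and in 3 of all 32851 windows. The Sgk1 window that holds it is 1 of 6 for that gene, and the element is in capitals.
Sgk1 (chr10:21993640-21993939, plus strand): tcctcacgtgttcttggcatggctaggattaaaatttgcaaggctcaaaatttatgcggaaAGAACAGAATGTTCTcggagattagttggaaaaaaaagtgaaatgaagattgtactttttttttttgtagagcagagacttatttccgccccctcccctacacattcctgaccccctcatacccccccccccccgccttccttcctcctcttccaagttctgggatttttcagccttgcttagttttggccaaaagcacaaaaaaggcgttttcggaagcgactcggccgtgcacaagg
Clock genes rose in 6 of 21 members and fell in 2, with 3 and 2 after cyclic loess and 2 and 2 without control replicate 2. Nr1d1, the repressor REV-ERB alpha, had 9.05 and 9.11 on the MPTP arrays and 9.72 and 9.78 on the control arrays (-0.67, SE 0.07, adjusted p = 0.00172), and the period gene Per3 fell as well (-0.58). Cry1 (0.65), Cry2 (0.32), Clock (0.35), Rora (0.46), Rorb (0.70) and Bhlhe41 (0.37) rose. These 6 are 28.6% of the list, beside 20.9% in the signal group of its median. The labels used here give no hour of tissue collection. The E-box CACGTG was in 5 of 18 clock promoters, those of Cry1, Bhlhe41, Per1, Tef and Ciart, and in 10.9% of the tested genes with a promoter. Of 26 immediate early genes 1 was higher (Dusp6, 0.53) and 2 were lower (Jund, -0.32, and Btg2, -0.50), with 1 and 1 after cyclic loess and 1 higher without control replicate 2. Fos had 6.56 and 6.46 in MPTP cords and 6.29 and 6.01 in control cords, and Arc had 7.18 and 7.17 in MPTP cords and 7.31 and 7.31 in control cords, neither called. Of the immediate early list 3.85% was higher and 7.69% lower, beside 4.02% and 3.18% in the signal group of its median.

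Lipid genes rose in 11 of 33 members and none fell, among them the elongases Elovl2 (0.79), Elovl4 (0.60) and Elovl5 (0.60), the desaturase Fads2 (0.42) and Cpt1a, which carries fatty acids into mitochondria (0.45). The count was 5 after cyclic loess, with 1 member lower, and 3 without control replicate 2, and the share of 33.3% was close to the 32.6% of the brightest group. Cholesterol synthesis rose in 6 of 21 members, including Hmgcs1 (0.48) and Cyp51 (0.51). Fdft1 fell (-0.32), although its other probe set differed by 0.01. The list share of 28.6% higher was again under the 32.6% of the brightest group. After cyclic loess 2 were higher and 2 lower, and without control replicate 2 limma called none, with 7 at an unadjusted p under 0.05. Metal-handling genes rose in 6 of 20 members, among them Tfrc, transferrin Trf (0.34), the iron carriers Slc11a2 (0.38) and Slc40a1 (0.50) and Mt2. That is 30%, beside 20.9% in the signal group of the list median. After cyclic loess 2 were higher and 1 lower, and without control replicate 2 there was 1 higher.

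Muscle genes made up many of the largest decreases and are set apart because control replicate 2 was high in them. Of the 29 muscle markers 19 were lower and 1, Pygm, a glycogen phosphorylase that astrocytes also express (0.38), was higher (median -1.58). Ckm, the muscle creatine kinase, had 5.92 and 5.74 on the MPTP arrays, against 8.13 and 9.94 on the control arrays (-3.21, SE 0.59). Neb, the thin-filament protein nebulin, had 4.56 and 4.49 in MPTP cords and 6.32 and 7.40 in control cords (-2.33). Both control arrays were above both MPTP arrays in these genes, and control replicate 2 was far above control replicate 1. After cyclic loess 20 were lower. Without control replicate 2 the list median was -1.02 and 7 members were lower, and without control replicate 1 it was -2.48. Ankrd23 (-1.71), Klhl41 (-1.51), Nrap (-1.12) and Cmya5 (-1.17), which were not in the list but are known from striated muscle, were among the 20 largest decreases. Other decreases of that set were Cd46 (-1.40), Usp17ld (-1.51), Amy1, an amylase (-1.19), Tbrg3 (-1.14) and Gdap10 (-1.05). Cd46 had 4.14 and 4.44 on the MPTP arrays, 4.03 to 4.47 on the needled arrays and 5.81 and 5.58 on the control arrays. It lay around the filter of 4.30 on all arrays of MPTP-treated mice and was clear of it only on the control arrays. Its decrease is thus a description. Schwann cell and nerve markers had a median of -0.14, which was -0.84 without control replicate 2 and 0.43 without control replicate 1, so no direction is given for them. The meninges list behaved alike, at -0.19, -0.76 and 0.36.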

How the data were processed

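RNA of cervical spinal cord was hybridised to 8 Affymetrix whole-transcript arrays, 2 per group. The log2 values deposited by the authors were made with RMA in Affymetrix Expression Console per the submitters' processing notes, with no versions or genome build given in the sources used here. Of 35557 probe sets, 21789 carried 1 gene symbol in the platform annotation, 1621 several and 12147 none; those with several or none named no gene. RefSeq tables (GRCm38.p6) gave chromosomes, gene order, RNA classes, microRNAs and promoters. All 8 arrays entered a limma model with 4 group means, version 3.58.1 (R 4.3.3) with an intensity trend, 4 residual and 5.341 prior degrees of freedom, after a filter at a mean log2 signal of 4.30. P-values are two-sided and Benjamini-Hochberg adjusted over 16026 genes. An exact permutation of 2 against 2 arrays cannot go below p = 0.333. Precision is set by the small number of arrays, and RMA values keep no signal over background. No scan date was used, so a batch could not be tested.

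Named genes are, in each direction, the 16 with the smallest p and the 20 with the largest difference among called genes whose arrays do not overlap, muscle markers apart, plus members of 76 gene lists with at least the 4 smallest p; in each list described, called members and defining members may be named. Histones had 0 members tested. The members, lists and tests were chosen with earlier results of these data known. Lists are described by counts and medians, without a set test. For 179 called genes 330 further probe sets passed the filter, of which 291 had the same direction. Alternatives were quantile normalization again, cyclic loess, median centring, no or a stricter filter, no trend, robust moderation, fewer arrays, array weights, averaged probe sets, a replicate block and each array left out. The model was also run on simulated data with independent noise on each array, and no result of that run is used here.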

Additional observations from a re-analysis of the deposited data

How the results depend on the processing

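The counts of 2696 genes called, 2199 higher and 497 lower, moved by over 1.5 times under several settings; the cause was not tested except where fewer arrays were fitted. Centring arrays on their medians gave 4246 called (4028 higher, 218 lower), and cyclic loess gave 1338 higher and 752 lower, so 94.9% and 64% of called genes were higher, against 81.6%. Array weights gave 4159 called and 862 lower, and no intensity trend gave 1414 higher. Leaving out control replicate 2 and acupoint replicate 1 together, a setting chosen after seeing the data, gave 4072 called, 3160 higher and 912 lower. With each array left out in turn, 69 to 4225 genes were called, 44 to 3352 higher and 25 to 873 lower, fewest without MPTP replicate 1 and most without acupoint replicate 1. Genes called and at least 2-fold apart ranged from 31 to 149, fewest without MPTP replicate 1 and most without control replicate 1. The median difference of 0.061 was 0.104 after quantile normalization again, 0.037 after loess, 0.219 after centring, 0.033 with no filter and 0.112 with a filter at the 50th percentile. Of 478 genes followed singly, no called gene changed sign under any setting, and 148 lost the call after loess. Most lost it without MPTP replicate 1, without MPTP replicate 2 or without control replicate 2. Each of these fits leaves 1 array in a group, and the losses were largest without an MPTP array. With the replicate number as a block 2210 genes were called, 1809 higher and 401 lower. The labels give no pairing, and same-numbered MPTP and control arrays deviated with a correlation of -0.261.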
